A study of Rattus norvegicus with 12 samples.

Results

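Membrane trafficking genes of 3 families were followed in rat tail tendon fascicles, the fine collagen bundles in which the tendon's fibroblasts lie: the Rab GTPases, the sorting nexins (Snx) and the Vps genes. Genes were taken by symbol, as Rab, Snx or Vps followed by a number, where the array's annotation gave that symbol to a probe. The array held 96 such genes on 100 probes, 48 Rab, 23 Snx and 25 Vps. Of these, 73 genes lay in the brighter 50% of all probes by mean log2 intensity over the 12 arrays and are described here, 29 Rab, 20 Snx and 24 Vps, among 7780 genes so kept. The members just inside that limit were Rab43, Snx13 and Vps37c, at mean signals of 56.4, 56.7 and 57.4, and those just outside it were Rab19, Rab17 and Snx33, at 56.2, 56.0 and 55.9. The other 23 genes are not described further.

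Fascicles isolated from rat tail tendon were kept in vitro either unstrained or under cyclic tensile strain, for 1 h or for 24 h. Each of the 4 groups had 3 RNA samples, each on 1 Illumina bead array. The rat strain, the animals' age and the amplitude and rate of loading are not stated in the labels used here. They also leave unsaid whether the RNA samples of 1 group are from different animals, so every p-value here reflects sample-to-sample spread that may be partly or wholly technical. In whole fascicles, fewer cells of a type and less RNA per cell cannot be told apart.

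Rab GTPases are molecular switches that mark the membrane of an organelle and, when loaded with GTP, recruit the proteins that move, tether and fuse vesicles. Sorting nexins bind phosphoinositides of endosomes through a PX domain, and those with a BAR domain bend the membrane into the tubules through which receptors leave. Vps proteins, named after yeast mutants that missort vacuolar enzymes, build the retromer (recycling out of endosomes), the ESCRT complexes (inward budding), the HOPS and CORVET tethers (fusion with lysosomes and between endosomes) and the GARP and EARP tethers. In tendon fibroblasts the same routes carry procollagen out and integrins and matrix fragments in and back.

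Of the 73 genes, 61 had a promoter in the RefSeq table of assembly GRCr8, a window of 300 bases from 250 before the start to 50 after it. The core of the CLEAR element of lysosomal genes, TCACGTGA, which reads the same on both strands, was found in 6 of them, 9.84%: Rab21, Snx2, Vps11, Vps16, Vps26a and Vps33a. It was found in 0.777% of all 33469 promoters of the table and in 1.69% of 6499 kept genes. Shares of members and of kept genes count genes with a match. Those of the whole table count single promoters, also of genes not kept. The motif contains CACGTG, which was found in 12 of the 61 windows (19.7%), against 6.42% of all promoters and 9.46% of those of kept genes. Both strands were also searched for TGACGTCA, TGANTCA and CCGGAAG, found in 3, 3 and 15 windows (4.92%, 4.92% and 24.6%), against 1.83%, 7.33% and 8.75% of all promoters and 3.25%, 5.51% and 17.8% of those of kept genes. These 5 motifs were chosen after the expression values were known, and a match is a run of letters, not a shown site of binding.

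The windows of 5 of the 6 genes are shown because 3 of those genes (Vps11, Vps16 and Vps33a) encode subunits of the shared core of HOPS and CORVET, whose members are described below beside the retromer gene Vps26a and the early endosome gene Rab21. In GRCr8 the windows lie at chr8:53595328-53595627 on the minus strand, chr3:138075460-138075759 on the plus strand, chr12:38685274-38685573 on the plus strand, chr20:30976840-30977139 on the minus strand and chr7:52814894-52815193 on the minus strand. Each is written 5′ to 3′ along its gene's strand with TCACGTGA in capitals, which occurs 2 times in the windows of Vps11 and Vps33a.
Vps11: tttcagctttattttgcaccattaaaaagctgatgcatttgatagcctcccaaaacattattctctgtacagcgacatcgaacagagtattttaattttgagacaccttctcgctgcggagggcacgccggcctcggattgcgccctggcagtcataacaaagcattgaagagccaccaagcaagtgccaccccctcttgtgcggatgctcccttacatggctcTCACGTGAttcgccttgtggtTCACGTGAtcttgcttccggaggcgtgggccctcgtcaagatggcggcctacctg
Vps16: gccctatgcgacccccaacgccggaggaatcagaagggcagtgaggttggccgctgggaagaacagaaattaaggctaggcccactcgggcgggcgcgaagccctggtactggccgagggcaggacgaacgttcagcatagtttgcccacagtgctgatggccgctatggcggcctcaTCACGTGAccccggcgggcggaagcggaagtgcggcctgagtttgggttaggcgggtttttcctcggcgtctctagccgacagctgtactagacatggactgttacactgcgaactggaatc
Vps33a: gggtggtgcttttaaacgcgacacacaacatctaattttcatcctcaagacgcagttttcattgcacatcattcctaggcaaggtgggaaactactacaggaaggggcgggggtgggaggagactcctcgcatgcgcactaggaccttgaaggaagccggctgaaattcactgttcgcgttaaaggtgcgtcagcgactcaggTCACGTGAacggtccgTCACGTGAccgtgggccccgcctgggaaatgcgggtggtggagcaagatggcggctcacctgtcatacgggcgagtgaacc
Vps26a: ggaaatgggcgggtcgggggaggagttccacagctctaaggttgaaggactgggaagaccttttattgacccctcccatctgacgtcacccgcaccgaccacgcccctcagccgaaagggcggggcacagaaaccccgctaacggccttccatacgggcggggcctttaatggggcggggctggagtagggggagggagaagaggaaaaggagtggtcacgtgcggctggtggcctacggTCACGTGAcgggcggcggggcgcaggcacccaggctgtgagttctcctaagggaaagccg
Rab21: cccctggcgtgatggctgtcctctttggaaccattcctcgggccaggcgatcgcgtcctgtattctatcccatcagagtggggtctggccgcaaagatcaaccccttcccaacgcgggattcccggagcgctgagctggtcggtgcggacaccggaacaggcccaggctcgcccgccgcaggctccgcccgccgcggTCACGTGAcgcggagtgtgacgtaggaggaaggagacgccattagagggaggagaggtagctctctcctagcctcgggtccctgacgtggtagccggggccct

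After 1 h of strain none of the 73 genes passed the test. limma called 0 of them, as it called 0 of all 11258 kept probes (0%), and the smallest adjusted p was 0.964. An unadjusted p under 0.05 was reached by 4 members, 5.48%, against 4.9% of all kept probes. The log2 differences ran from -0.27 for Vps26b to 0.35 for Rab9a, with a median of 0.01. The 95% interval of the difference lay within 1.5-fold in both directions for 64 members and within 2-fold for all 73. Like each SE and adjusted p given for a member at 1 h, it came from the fit that did not pair the arrays. Groups that did not overlap were found in 6 members, 3 higher and 3 lower, against 7.81% of all kept probes (3.91% higher and 3.9% lower).

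The 4 members of smallest p at 1 h were Rab5a, Rab9a, Snx15 and Rab5c. Rab5a, which organizes fusion of early endosomes, had signals of 82.2, 86.9 and 70.8 in unstrained and 93.5, 95.1 and 118 in strained fascicles. The strained arrays all lay above the unstrained ones, and the log2 difference was 0.35 ± 0.12 (SE; 95% interval 0.09 to 0.61; limma adjusted p = 0.964). Its paralogue Rab5c lay the other way, at 273, 274 and 268 in unstrained and 250, 252 and 204 in strained fascicles, with a log2 difference of -0.21 ± 0.10 (limma adjusted p = 0.981). Rab9a, which returns mannose 6-phosphate receptors from late endosomes to the Golgi, stood at 174, 175 and 243 against 230, 249 and 269, with overlapping groups and a log2 difference of 0.35 ± 0.14. Snx15, an endosomal sorting nexin, had signals of 123, 121 and 109 unstrained and 149, 150 and 131 strained. Its groups did not overlap, and its log2 difference was 0.28 ± 0.11 (limma adjusted p = 0.964).

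Retromer and ESCRT members did not pass the test at 1 h. Vps35, the retromer's scaffold, differed by 0.09 ± 0.16 on the log2 scale, Vps26a by 0.09 ± 0.14 and Vps29 by 0.06 ± 0.12. Vps26b, the paralogue of Vps26a, stood at -0.27 ± 0.15. Vps4a and Vps4b, the ATPases that take ESCRT filaments apart, stood at 0.18 ± 0.09 and 0.16 ± 0.10, and the ESCRT-I subunits Vps37b and Vps37a at 0.23 ± 0.13 and 0.22 ± 0.19. Rab1a, Rab7a, Rab8a and Rab11a, which serve transport from the endoplasmic reticulum, late endosomes, exocytosis and recycling, had log2 differences of -0.01, 0.11, 0.14 and -0.03. Among the SNX-BAR proteins Snx1, Snx2 and Snx5 they were -0.25, -0.05 and 0.15. Among HOPS and CORVET subunits they were -0.19 for Vps11, -0.06 for Vps18 and 0.10 for Vps33a. Lowest p in their role classes, and also not past the test, were Rab25 at -0.20, Rab27a at -0.15, Rab43 at -0.13, Rab28 at 0.05, Vps45 at 0.26 and Vps53 at -0.08.

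At 1 h, arrays with the same replicate number deviated together, so the pairs were also compared directly. The strained array was on the same side of its unstrained partner in all 3 pairs for 26 of 73 members, 35.6%, 15 higher and 11 lower, against 30.0% of all kept probes. Blocked on replicate number within each time, limma again called 0 members at 1 h, where it called 0.204% of all kept probes. That block also held the 24 h numbers, which were not taken as pairs.

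After 24 h of strain, again none of the 73 genes passed the test without the block. Of all kept probes 263 did, 2.34%. That number became 69 or 95 without strained replicate 2 or 3 at 24 h and 109, 118 or 107 without unstrained replicate 1, 2 or 3 at 24 h, with 0 members called in each. The smallest limma adjusted p was 0.104, that of Rab18. Unadjusted, 4 members had a p under 0.05, 5.48%, against 13.2% of all kept probes. Log2 differences ran from -0.41 (Rab3d) to 0.44 (Rab2a) with a median of -0.03, where the median at 1 h was 0.01. The 95% interval lay within 1.5-fold for 61 members and within 2-fold for 72, the exception being Rab3d, a Rab of secretory granules, at -1.04 to 0.22. Groups did not overlap in 15 members, 8 higher and 7 lower, against 20.5% of all kept probes (11.2% higher and 9.34% lower). Values for every member at both times are drawn in the plot of strain effects by role.

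**Figure D1:**
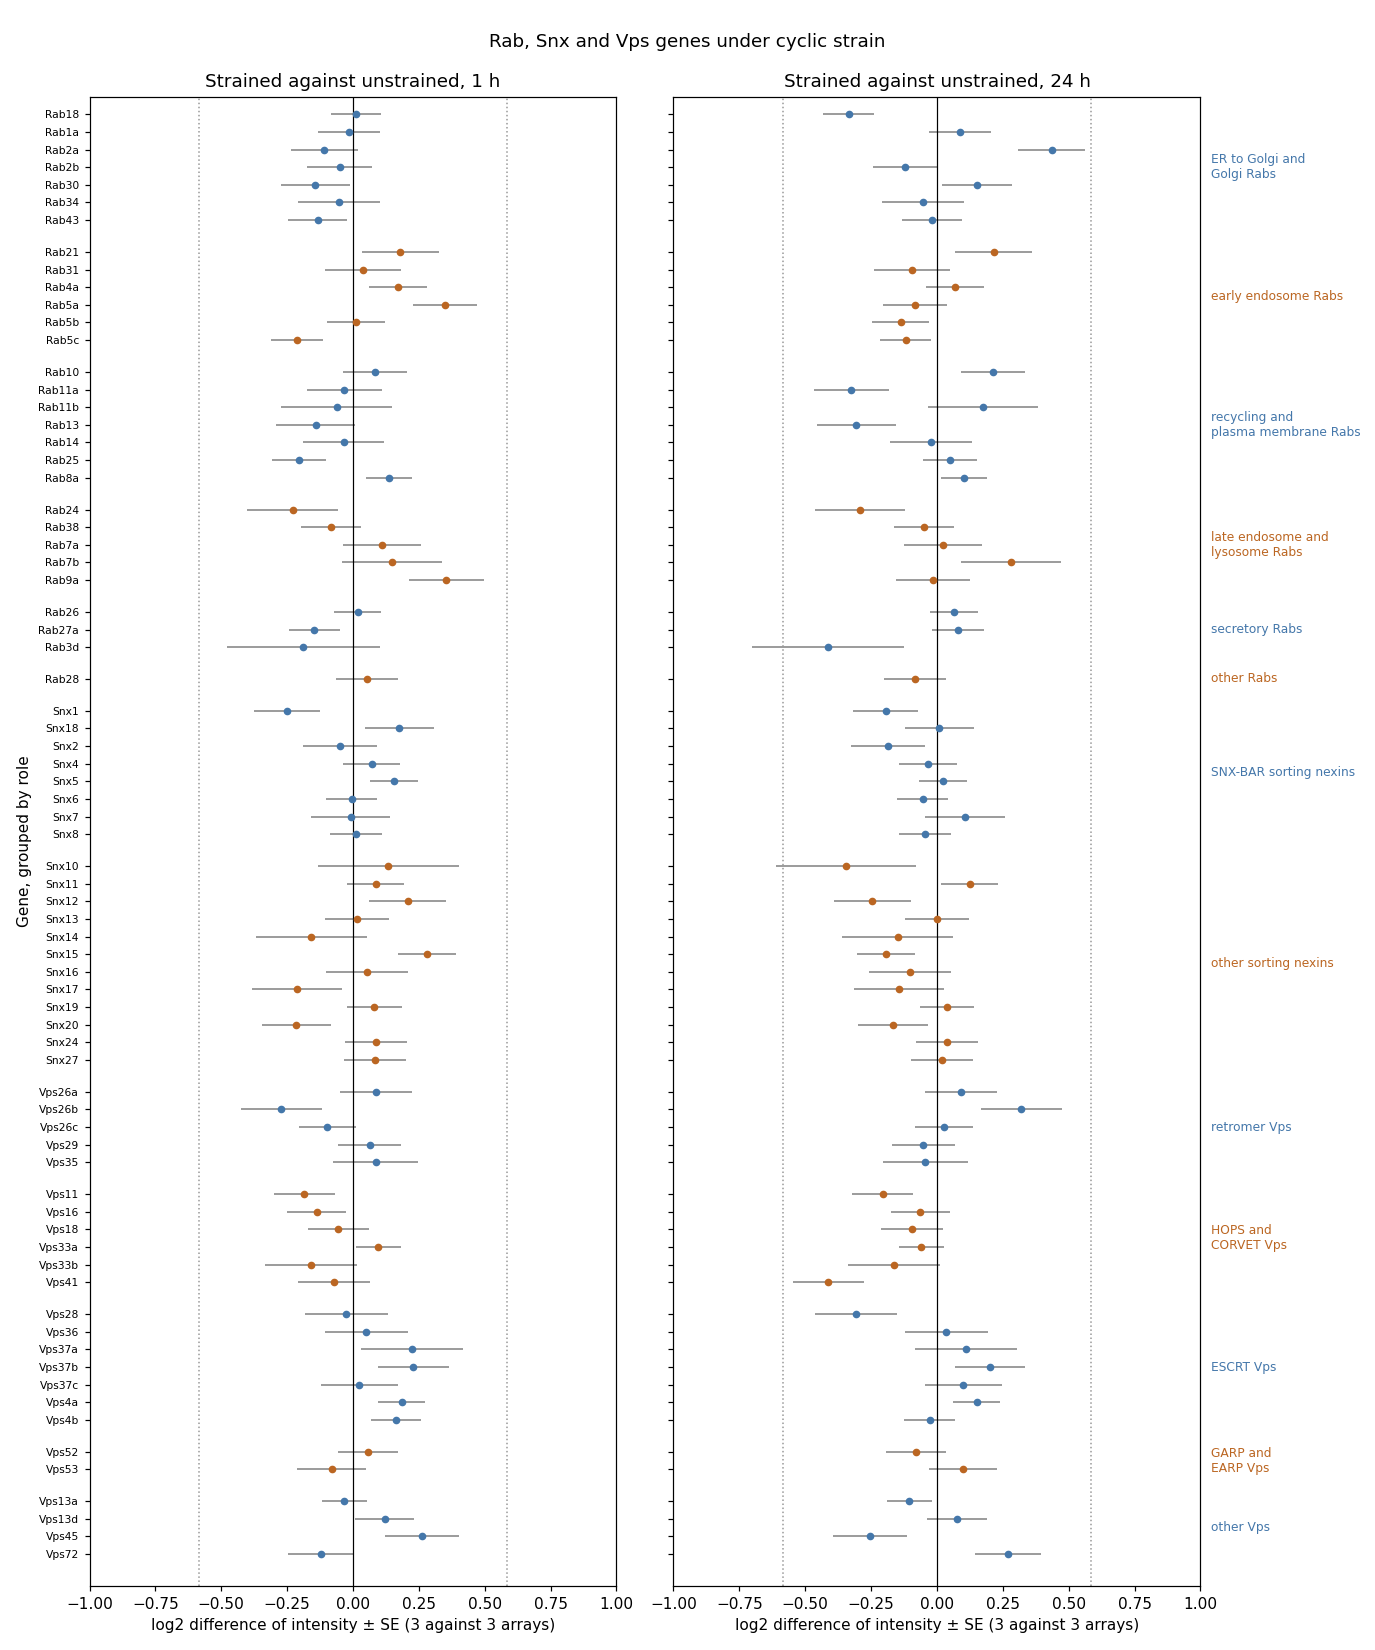
Log2 difference of intensity, strained against unstrained, for the 73 genes at 1 h (left) and 24 h (right), grouped by role. Points are fitted differences and bars their SE over 3 against 3 arrays, dotted lines mark 1.5-fold, the 2 colours only separate neighbouring roles, and no gene passed the test at either time.

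Rab18, Rab2a and Vps41 had the smallest p of the members at 24 h. Rab2a, which works between the Golgi and the endoplasmic reticulum, had signals of 518, 393 and 429 in unstrained and 586, 671 and 549 in strained fascicles. The strained arrays all lay higher, with a log2 difference of 0.44 ± 0.13 (SE; 95% interval 0.16 to 0.71; limma adjusted p = 0.111). Rab18, a Rab of the endoplasmic reticulum and lipid droplets, had signals of 764, 781 and 640 unstrained and 594, 577 and 555 strained. All 3 strained arrays lay lower, with a log2 difference of -0.34 ± 0.10 (95% interval -0.54 to -0.13). Vps41, a subunit of HOPS, stood at 216, 211 and 185 unstrained and 138, 175 and 149 strained, again without overlap, at -0.41 ± 0.14 (95% interval -0.71 to -0.12; limma adjusted p = 0.167). The fit blocked on replicate number within each time called Vps41, as it called 7.83% of all kept probes. The 24 h numbers were not taken as pairs.

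Members of other roles did not pass the test at 24 h either. Snx10 and Rab3d, a Rab of secretory granules, had log2 differences of -0.34 ± 0.27 and -0.41 ± 0.29, with overlapping groups. The ESCRT-I subunit Vps28 stood at -0.31 ± 0.16, with unstrained signals of 473, 343 and 547 around strained signals of 384, 345 and 354. Vps26b was higher on all 3 strained arrays, at 114, 130 and 129 against 89.2, 104 and 106, with a log2 difference of 0.32 ± 0.15 that did not pass the test (limma adjusted p = 0.419). Vps35, Vps26a and Vps29 stood at -0.04, 0.09 and -0.05 beside it. Rab11a, the Rab of recycling endosomes, stood at -0.33 ± 0.14, with signals of 284, 414 and 314 unstrained and 254, 244 and 303 strained. Rab21 and Rab24 had values of 0.21 and -0.29, Rab1a, Rab5a, Rab7a and Rab8a of 0.09, -0.08, 0.02 and 0.10, and Snx1, Snx2, Snx5 and Snx15 of -0.19, -0.19, 0.02 and -0.19. Vps4a and Vps4b stood at 0.15 and -0.03, Vps18 and Vps33a at -0.10 and -0.06, Vps53 at 0.10, Vps72 at 0.27 and Rab28 at -0.08.

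Whether the strain effect differed between 24 h and 1 h was tested directly, and no member passed (0.0799% of all kept probes did). The smallest limma adjusted p was 0.388, shared by Rab2a, at a difference of 0.55 ± 0.18 on the log2 scale, and Snx15, at -0.47 ± 0.16. Unadjusted, 8 of the 73 members had a p under 0.05, against 8.15% of all kept probes. The median difference was -0.04.

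Genes that work with these families were listed in 9 groups, with 216 genes kept. None passed at 1 h without the block. With it 1 did, Sec24a of the COPII coat, at signals of 122, 100.2 and 125 in unstrained and 179.7, 139.9 and 181 in strained fascicles, a log2 difference of 0.53 ± 0.09 (limma adjusted p = 0.0457, 0.727 without the block), where the block called 0.204% of all kept probes. The block fit also used the 24 h numbers, which were not taken as pairs. At 24 h of strain 5 passed without the block, 2.31%, against 2.34% of all kept probes. Itgb1, the integrin beta 1 subunit and a cargo of endosomal recycling, was higher in strained than in unstrained fascicles by 0.47 ± 0.08 on the log2 scale (limma adjusted p = 0.0157). Between 1 h and 24 h Itgb1 fell in unstrained fascicles and did not pass the test in strained ones. Its mean signal was 570.6 in unstrained and 790.6 in strained fascicles. Lower under strain were Npc2, which carries cholesterol inside lysosomes (-0.95 ± 0.14), Lamp2, a lysosomal membrane protein (-0.55 ± 0.10), Dab2, a clathrin adaptor (-0.93 ± 0.20), and Vamp4, a SNARE of the trans-Golgi (-0.84 ± 0.15). Of these 5, Npc2 alone kept its call whichever array was left out. Each of the others lost it without strained replicate 2, without strained replicate 3 and without unstrained replicate 3 at 24 h, Lamp2 and Vamp4 also without unstrained replicate 1 at 24 h, Itgb1 and Dab2 without replicate 2 of that group, and Dab2 without unstrained replicate 2 at 1 h.

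Of 13 macrophage and leucocyte markers 11 were on the array and 10 were kept. At 24 h Cd53 (-0.63) and Adgre1 (-0.87) were lower under strain, and the other 8 did not pass the test. The summed signal of the 11 was 2412 to 3177 in unstrained and 1511 to 2079 in strained fascicles at 24 h, and 2784 to 4817 and 1952 to 3246 at 1 h. Of 7 smooth muscle and pericyte markers 5 were on the array and 3 were kept, and Cspg4 was higher under strain at 24 h, by 0.81 on the log2 scale (limma adjusted p = 0.0190). Des and Smtn, also kept, did not pass (limma adjusted p = 0.260 and 0.274). The summed signal of the 5 was 314 to 350 in unstrained and 401 to 509 in strained fascicles at 24 h, and 471 to 552 and 437 to 516 at 1 h. Cspg4 was the brightest gene of that sum, at a mean signal of 174 over all arrays, with the others at 50.8 to 82.3. The part of either marker list in the values of the trafficking genes was not tested. No marker of endothelium, blood or keratinocytes was kept. The 7 tendon fibroblast markers on the array were all kept and none passed for strain, while Scx, Mkx and Comp had no named probe.

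The calls among these genes were between the 2 culture times. Log2 values of arrays of different times correlated at 0.922 to 0.960, and those of strained and unstrained arrays of the same time at 0.964 to 0.986. Whether the 1 h and 24 h arrays share animals, days or array runs is not known here. Such differences cannot be told apart from culture time, and changes with time are differences between the arrays of the 2 times. Between 1 h and 24 h, 13 of 73 members changed in unstrained fascicles, 10 higher and 3 lower, 17.8% against 17.2% of all kept probes (9.83% higher and 7.42% lower). In strained fascicles 14 changed, 10 higher and 4 lower, 19.2% against 20.7% (12.2% higher and 8.52% lower). Both shares are near those of all kept probes, but 50 of the 73 members lay in the brighter 25% of probes. Tested among those probes alone, 12 of the 50 were called without strain and 13 under it. Those are lower shares than the 31.8% and 38.8% of all probes tested there. The 2 comparisons share no array, and 8 genes were called in both, each in the same direction: Snx10, Vps36, Vps16, Snx7, Rab13 and Rab5c higher at 24 h, and Rab7b and Vps37b lower. That is 61.5% of those called in unstrained and 57.1% of those called in strained fascicles, against 66.4% and 55.3% for all kept probes.

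Rab7b, a Rab of late endosomes and the trans-Golgi first described in human dendritic cells and monocytes, had the largest change. Its signals were 292, 204 and 257 at 1 h and 73.1, 70.0 and 71.4 at 24 h in unstrained fascicles. In strained fascicles they were 285, 198 and 370 at 1 h and 92.0, 85.8 and 83.0 at 24 h. Every 24 h array lay below every 1 h array, with a fall of 3.47-fold without strain (log2 -1.80 ± 0.19, limma adjusted p = 1.04e-04) and of 3.17-fold under strain (-1.66 ± 0.19, limma adjusted p = 1.40e-04). No intensity lies under 33.7 and every array has a median of 57.0, so the fold may understate the change of a signal this low. Its paralogue Rab7a, the general Rab of late endosomes and lysosomes, stood at 0.30 ± 0.15 and 0.22 ± 0.15 and did not pass.

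Among the macrophage markers, C1qa, C1qb and C1qc fell with time beside Rab7b, with log2 differences of -1.76, -3.18 and -2.59 in unstrained fascicles and of -1.22, -2.83 and -2.11 in strained ones. Cd53 and Adgre1 rose by 0.81 and 0.77 without strain, the other 5 kept markers did not pass there, and in strained fascicles 0 of 10 rose. Tendon fibroblast markers were also lower at 24 h, 3 of 7 in unstrained fascicles (Col1a1, Kera and Fmod, at -3.26, -2.20 and -1.27) and 6 in strained ones, where those 3 stood at -3.03, -2.82 and -1.63 and Tnmd, Col1a2 and Dcn at -1.39, -0.69 and -0.56. Their summed signal was 39447 to 58186 and 41410 to 58811 at 1 h, without and with strain, and 27060 to 33389 and 21636 to 32630 at 24 h. In unstrained fascicles Cspg4 and the skeletal muscle marker Tnnt3 fell with time, by 1.20 and 0.93 on the log2 scale. The part of these markers in the time values of the trafficking genes, Rab7b included, was not tested.

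Snx10, a sorting nexin whose human gene is mutated in a form of osteopetrosis, rose most. Unstrained fascicles had signals of 85.7, 79.2 and 60.5 at 1 h and 213, 244 and 120 at 24 h, and strained ones 98.9, 84.2 and 65.1, then 152, 184 and 110. The groups did not overlap in either pair, and replicate 3 was the lowest in all 4 groups. The rise was 2.48-fold without strain (log2 1.31 ± 0.27, limma adjusted p = 0.00549) and 1.78-fold under strain (0.83 ± 0.27, limma adjusted p = 0.0444). Snx7, a BAR-domain partner of Snx4 in autophagy and recycling, was the other sorting nexin that rose in both, at 172, 174 and 222 rising to 271, 304 and 242 without strain and at 183, 156 and 229 rising to 285, 321 and 271 under it. Its log2 differences were 0.53 ± 0.15 and 0.64 ± 0.15.

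**Figure D2:**
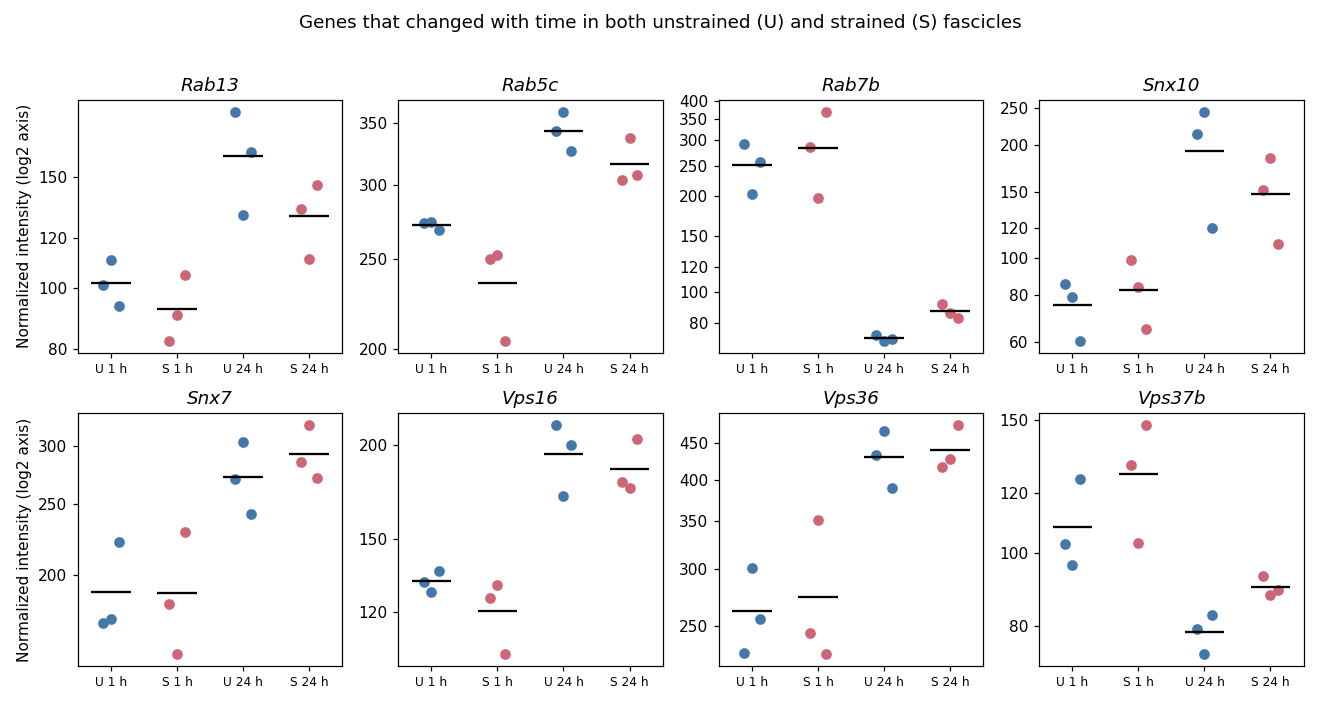
Normalized intensity (log2 axis) on each array for the 8 genes that changed with culture time in both unstrained (U, blue) and strained (S, red) fascicles; points are arrays, 3 per group, and lines are group means. Rab7b and Vps37b lie lower on all 24 h arrays than on the 1 h arrays of the same treatment, and the other 6 genes lie higher.

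Among Vps genes, Vps36 and Vps16 rose in both comparisons and Vps37b fell. Vps36, of ESCRT-II, had signals of 229, 301 and 256 at 1 h and 433, 468 and 390 at 24 h in unstrained fascicles, and 244, 352 and 228, then 417, 428 and 478, in strained ones. All 24 h arrays lay above all 1 h arrays, 1.65-fold (log2 0.72 ± 0.16) and 1.63-fold (0.71 ± 0.16). Vps16, of the core shared by HOPS and CORVET, rose from 132, 128 and 136 to 213, 171 and 200 without strain and from 125, 130 and 105 to 179, 175 and 204 under it. Its log2 differences were 0.56 ± 0.11 and 0.63 ± 0.11 (limma adjusted p = 0.00503 and 0.00182). Of the ESCRT-I subunits, Vps37b fell, from 103, 96.5 and 125 to 79.2, 73.3 and 82.6 without strain and from 131, 103 and 148 to 93.1, 87.9 and 89.2 under it, by 0.46 ± 0.13 and 0.48 ± 0.13 on the log2 scale.

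Of 6 measured genes of the HOPS and CORVET class, which includes the Vps33a relative Vps33b, 3 rose with time in unstrained fascicles, Vps16, Vps41 and Vps33a, and 1 in strained ones, Vps16. Of all kept probes 9.83% and 12.2% were higher, and the call of Vps33a was lost in 14 of 20 alternatives. Vps41 stood at 107, 126 and 150 at 1 h and 216, 211 and 185 at 24 h without strain, a log2 difference of 0.68 ± 0.14 (limma adjusted p = 0.00476). Under strain it stood at 114, 114 and 135, then 138, 175 and 149, at 0.34 ± 0.14 (limma adjusted p = 0.100). The difference between these 2 values was the strain difference tested above, -0.34 ± 0.19 (limma adjusted p = 0.703). Vps33a had signals near the array median of 57.0, at 54.0, 56.9 and 52.3 rising to 64.3, 62.9 and 69.9, a log2 difference of 0.27 ± 0.09. Vps11 and Vps18 stood at 0.14 and -0.01 without strain and 0.12 and -0.05 under it. Of the 6 genes with TCACGTGA in the printed or searched windows, Vps16, Vps33a and Snx2 rose in unstrained fascicles, where Snx2, like Vps33a, lost its call in 14 alternatives, Vps16 rose in strained ones, and Vps11, Vps26a (0.35 and 0.36) and Rab21 (-0.36 and -0.33) passed in neither.

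Rab13 and Rab5c were the Rabs that rose in both. Rab13, which takes part in transport to the plasma membrane and cell junctions, went from 101, 111 and 93.5 to 190, 130 and 164 without strain and from 82.3, 90.4 and 105 to 133, 111 and 146 under it. The log2 differences were 0.65 ± 0.15 and 0.49 ± 0.15, with no overlap of the groups. Rab5c went from 273, 274 and 268 to 342, 360 and 326, and from 250, 252 and 204 to 304, 337 and 307, at 0.33 ± 0.10 and 0.43 ± 0.10. Rab5a, its paralogue, stood at 0.14 and -0.30 and passed in neither.

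**Figure D3:**
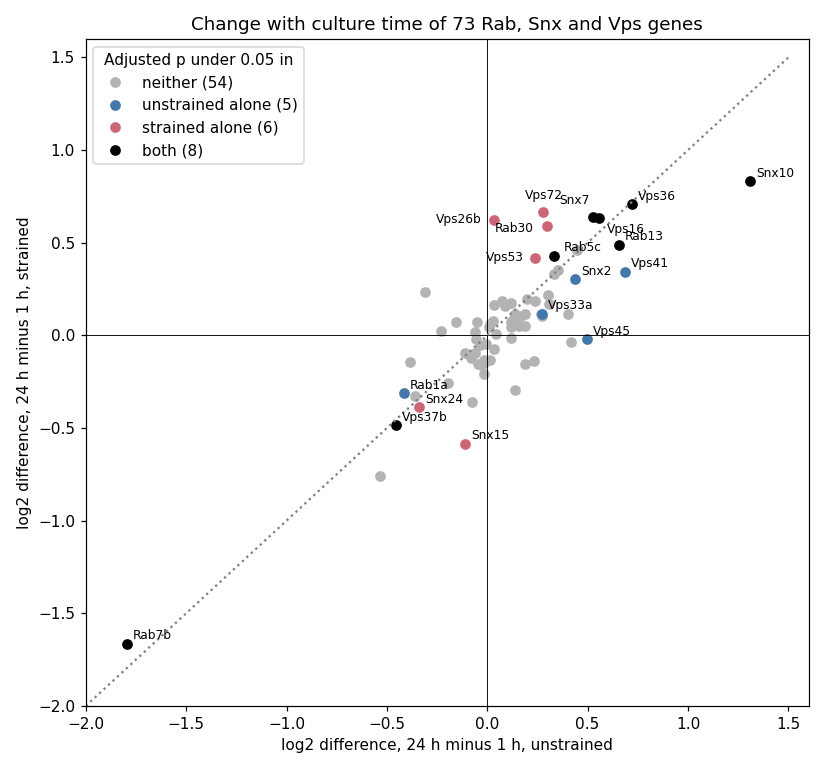
Log2 difference between 24 h and 1 h for each of the 73 genes, in unstrained (horizontal) and strained (vertical) fascicles; colours show where a gene passed the test and the dotted line marks equal values. Rab7b lies far at the lower left, 6 of the 8 genes called in both lie at the upper right, and Vps45 and Vps26b lie near 0 on the strained and on the unstrained axis.

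Across the 73 genes the log2 differences in the 2 comparisons had Pearson's r = 0.84, or 0.76 without Rab7b, against 0.80 over all kept probes; genes are not independent replicates. Called in unstrained fascicles alone were Vps41, Vps33a, Vps45, Snx2 and Rab1a. Vps45, which guides SNARE pairing at endosomes and the Golgi, stood at 62.0, 79.4 and 60.7 at 1 h and 98.4, 89.3 and 95.2 at 24 h (0.50 ± 0.14), and under strain at -0.02 ± 0.14. Snx2 stood at 452, 512 and 397, then 580, 705 and 559 (0.44 ± 0.14, limma adjusted p = 0.0499). Rab1a, of transport from the endoplasmic reticulum to the Golgi, fell from 905, 851 and 993 to 698, 614 and 753 (-0.41 ± 0.12), and under strain stood at -0.31 ± 0.12.

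Called in strained fascicles alone were Vps72, Vps26b, Rab30, Vps53, Snx15 and Snx24. Vps72, which by its known role belongs to chromatin complexes that place the histone variant H2A.Z and not to trafficking, had signals of 71.6, 60.4 and 60.4 at 1 h and 98.7, 115 and 92.3 at 24 h (0.67 ± 0.13, limma adjusted p = 0.00267). Vps26b rose from 83.0, 102 and 61.5 to 114, 130 and 129 (0.62 ± 0.15), with 0.03 ± 0.15 in unstrained fascicles. Rab30, a Golgi Rab, rose by 0.59 ± 0.13 and Vps53, of the GARP and EARP tethers, by 0.42 ± 0.13. Snx15 fell from 149, 150 and 131 to 112, 87.7 and 87.8 (-0.59 ± 0.11, limma adjusted p = 0.00276) and stood at -0.11 ± 0.11 without strain. Snx24 fell by 0.39 ± 0.12 and had a value of -0.34 ± 0.12 without strain. None of the 11 genes called in a single comparison had a strain difference that passed its own test.

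Other retromer, ESCRT, Rab and SNX-BAR members did not pass the test for time. Vps35 and Vps29 stood at 0.12 and -0.02 without strain and -0.01 and -0.13 under it. Vps4a and Vps4b stood at -0.06 and -0.02, then -0.10 and -0.21, and Rab8a and Rab11a at 0.04 and 0.40, then 0.01 and 0.11. Snx1 and Snx5 stood at 0.12 and -0.03, then 0.18 and -0.16. The median over all 73 was 0.12 without strain and 0.06 under it, against 0.00 over all kept probes in unstrained fascicles, and groups did not overlap in 27 and 25 members, against 33.7% and 34.4% of all kept probes.

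The number of calls for time in unstrained fascicles fell when single arrays were left out. The count of 13 became 8 or 7 without unstrained replicate 1 or 3 at 1 h, and 7, 6 or 8 without unstrained replicate 1, 2 or 3 at 24 h. The share of all kept probes called, 17.2% with every array, fell in the same runs. It became 14% or 12.4% in the first 2 and 10.9%, 12.6% or 13.7% in the others. Snx10, Vps36, Vps41, Vps16 and Rab7b kept their calls in every alternative run without strain, and Vps36, Vps72, Snx7, Vps16, Vps26b, Rab30, Rab5c, Rab7b and Snx15 did under strain. Of the others without strain, Rab13 lost its call without unstrained replicate 1 at 24 h, Vps45, Snx2, Vps37b, Rab1a, Rab5c and Vps33a each lost theirs without unstrained replicate 1 or 3 at 1 h or replicate 1 or 2 at 24 h (all but Rab1a also without replicate 3 at 24 h), and Snx7 without unstrained replicate 1 or 2 at either time. Of the others under strain, Rab13 lost its call without strained replicate 1 or 2 at 1 h or 1 or 3 at 24 h, Vps37b without 1 or 3 at 1 h or 2 or 3 at 24 h, Snx24 without 2 or 3 at 1 h or any at 24 h, and Snx10 and Vps53, the least steady, in 8 and 11 alternatives.

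Of the 216 partner genes, 46 passed for time in unstrained fascicles, 26 higher and 20 lower (21.3%, against 17.2% of all kept probes), and 52 in strained ones, 24 higher and 28 lower (24.1%, against 20.7%). The counts of each list stand beside 9.83% of kept probes higher and 7.42% lower without strain, and 12.2% and 8.52% under it. Of the partner genes named for a change with time, 15 of 32 kept the call in every alternative without strain and 23 of 34 under it. Gga2, Ap3m1, Vamp4 and Stx5 without strain, and Optn and Dennd5a under it, lost it in 10 or more, with limma adjusted p up to 0.154 and 0.167. Partners of retromer and tethers (the WASH and commander complexes, TRAPP, exocyst and others) had 6 of 28 higher and none lower without strain, and 8 higher and none lower under it. Commd4, Commd10 and Commd8, commander subunits that recycle receptors with the retriever complex, rose by 1.06 ± 0.17, 0.91 ± 0.14 and 0.78 ± 0.13 on the log2 scale without strain. Under strain Commd4, Commd8 and Commd5 rose by 1.10, 0.83 and 0.77. Mean signals of Commd4 were 231.3 and 201.7 at 1 h and 482.9 and 427.3 at 24 h, without and with strain.

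Of 22 genes in the COPI and COPII list, which includes cargo receptors beside coat subunits, 6 fell and 1 rose without strain. Under strain 8 fell and 1 rose. Kdelr3, a receptor that returns proteins to the endoplasmic reticulum, fell by 0.90 ± 0.27 and 0.98 ± 0.27, and Tmed3, a cargo receptor of early secretion, by 0.60 and 0.75. Arcn1, the COPI delta subunit, fell by 0.81 ± 0.20 without strain, Sec31a of the outer COPII coat by 0.82 ± 0.18 under it, and Tmed1 rose by 0.46 and 0.67. Clathrin and adaptors had 6 of 33 lower and 3 higher without strain, then 5 lower and 1 higher. Cltb, a clathrin light chain, fell by 1.45 ± 0.20 and 1.05 ± 0.20, and Dnm1, the fission GTPase dynamin 1, by 1.21 ± 0.10 and 1.37 ± 0.10. Hip1 fell by 0.85 without strain and Dab2 by 0.76 under it, while Ap4b1 rose in both, by 0.37 and 0.41, and Gga2 and Ap3m1 rose by 0.33 and 0.30 without strain.

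SNAREs and fusion factors had 5 of 30 higher and 1 lower without strain, then 5 higher and 3 lower. Vamp7, a SNARE of late endosomes and lysosomes, rose by 0.87 ± 0.14 and 0.64 ± 0.14 and Stx8 by 0.59 without strain, while Stx5, of the Golgi, fell by 0.37 and 0.42. Vamp4 rose by 0.50 without strain; under it Snap47 and Bnip1 rose by 0.58 and 0.55 and Stx7 and Scfd1 fell by 0.53 and 0.47. Of 28 Rab effectors 4 were higher and 5 lower, then 1 and 7, with Plin3 higher in both (0.46 and 0.53) and Plekhm2 lower in both (-0.53 and -0.91). Zfyve16 and Myo5a rose by 0.59 and 0.53 and Uso1 and Mical1 fell by 0.61 and 0.56 without strain, and Optn and Rufy1 fell by 0.74 and 0.55 under it. Of 26 Rab regulators 2 were higher and none lower, then 3 and 3, with Rabif (0.44 and 0.54) and Ccz1, part of the activator of Rab7 (0.41 and 0.49), higher in both. Under strain Rab3ip rose by 0.32, and Rabac1, Dennd6a and Dennd5a fell by 0.62, 0.49 and 0.29.

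ESCRT partners had 2 of 16 higher and none lower in each comparison, Chmp5 (0.51) and Usp8 (0.46) without strain and Chmp6 (0.49) and Tsg101 (0.34) under it. Of 19 phosphoinositide enzymes 2 were higher and none lower in each, Pip4p1 (0.64 and 0.61) and Pik3c3, the kinase that makes the lipid to which PX domains bind (0.50 and 0.50). The cargo list of 15 genes held receptors, the cargo Itgb1 and lysosomal proteins such as Lamp2. In it M6pr, a mannose 6-phosphate receptor, rose by 0.35 and 0.71, and Lamp2 fell by 0.56 ± 0.10 and 1.10 ± 0.10. Itgb1 fell by 0.44 without strain and Wls, which carries Wnt proteins, by 0.74 under it.

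**Figure D4:**
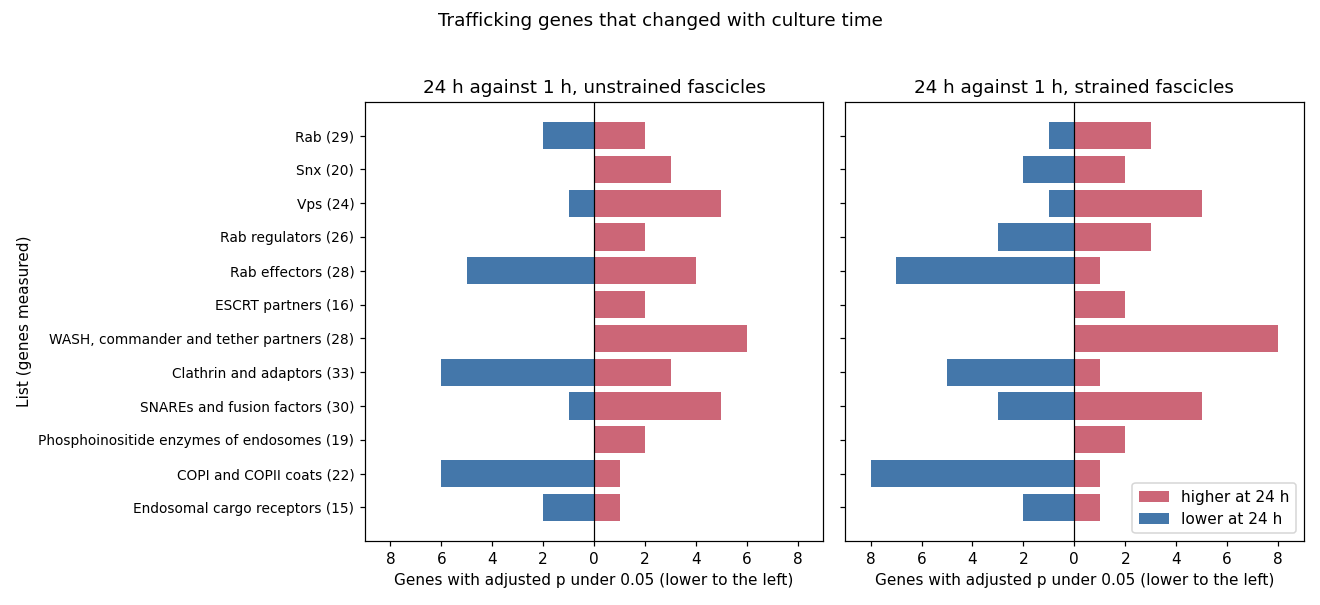
Number of genes higher (right, red) and lower (left, blue) at 24 h than at 1 h at an adjusted p under 0.05, by gene family and by list, in unstrained and strained fascicles; the number measured is in brackets. Partners of retromer and tethers have bars to the right alone (6 and 8). The COPI and COPII list, which includes cargo receptors, has bars mostly to the left (6 and 8).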

How the data were processed

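Values came from the authors' deposited table of linear intensity per probe for 22517 probes on 12 Illumina arrays. Its deposited intensities were already normalized between arrays: the sorted values of the arrays differed by at most 0.0929%, every array had a median of 57.0, and the lowest value was 33.7. The software is, like any background subtraction, not given in the sources used here. Another deposited file has 24 columns of per-sample values that no label ties to a sample, and none was used. RNA was extracted with Trizol, per the labels' protocols.

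Intensities were taken on the log2 scale with no further correction, and the 11258 brighter probes (mean signal 56.2 or more) were tested with limma 3.58.1 in R 4.3.3, two-sided, with 4 group means, 5 contrasts, 8 residual degrees of freedom and 4.08 from the prior. Calls were made at an adjusted p under 0.05 (Benjamini-Hochberg, over every kept probe). Precision is limited by the number of arrays: the median SE of a member's log2 difference was 0.12. The fits were also run on simulated data whose noise was independent between arrays. That run cannot show how the fits behave where arrays deviate together, as at 1 h. The rule for genes named took called members (at most 8 per direction), the smallest p in each role class for strain, a fixed set of members, and up to 3 called genes per direction in each list. Members named for their place in a range, for an unadjusted p or beside a relative were chosen after their values were seen. Members, lists and roles were chosen with earlier results of these data known. For all 73 genes 1 probe was kept.

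Same-numbered arrays deviated together at 1 h (r of deviations 0.604, 0.537 and 0.521) and were taken as pairs there. At 24 h the values were 0.0387, 0.309 and 0.388, and the numbers were not taken as pairs. Alternatives were the filter, variance trend, array weights, scaling, background, the replicate block and leaving out each array. A run on the mean of a gene's kept probes was also counted, which could change no call because each of the 73 genes kept 1 probe. Scaling acted on arrays of nearly equal median and called 17.3% of kept probes for time without strain, against 17.2%. Plots were made with matplotlib 3.10.9 (Python 3.11.15).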

Additional observations from a re-analysis of the deposited data

How the results depend on the processing

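In all alternatives run, the count of members called stayed at 0 for strain at 1 h and for the difference of the strain effects. For strain at 24 h it was 1 with the replicate block within each time, where Vps41 had a log2 difference of -0.41 ± 0.11 and a limma adjusted p of 0.0361 and 882 of all probes were called, and 0 in every other alternative, the replicate block over all 12 arrays included. The block changed no other call of a member for strain; the 24 h numbers were not accepted as pairs. For 24 h against 1 h in unstrained fascicles, the count of 13 ranged from 6 to 14 when single arrays were left out. It ranged from 10 to 13 in the other alternatives. Of all tested probes, 10.9% to 18.8% and 7.96% to 31.8% were called there. In strained fascicles the count of 14 ranged from 10 to 15 and from 12 to 16, against 15% to 21.1% and 9.64% to 38.8%. With the upper 25% of probes alone, 50 members remained. Of these, 12 were called without strain, against 31.8% of all tested probes, and 13 under strain, against 38.8%. The median log2 difference of the 73 members ranged over the alternatives from -0.02 to 0.04 for strain at 1 h, where its sign turned, from -0.05 to -0.01 for strain at 24 h, from -0.07 to -0.02 for the difference of the strain effects, and for time from 0.08 to 0.13 without strain and from 0.03 to 0.10 under it. Of 5087 recomputed values of named genes, 68 changed sign, and in 0 of these was the gene called in either fit. Snx2 and Vps33a in unstrained fascicles lost their calls in 14 alternatives each, with adjusted p up to 0.187 and 0.168, and in strained fascicles Snx10 lost it in 8 and Vps53 in 11. Probes near the array median, such as that of Vps33a, may have little signal over background, which would limit the fold that can be seen.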
